A study of Homo sapiens with 4 samples.

Results

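The catalytic subunits of the immunoproteasome, their constitutive counterparts and the proteasome activators were followed as 10 genes of the 46427 in the deposited count table. They were chosen by gene symbol. PSMB8, PSMB9 and PSMB10 are the inducible catalytic subunits, PSMB5, PSMB6 and PSMB7 the constitutive catalytic subunits, and PSME1, PSME2, PSME3 and PSME4 the activator genes. All 10 passed the filter on low counts.

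The proteasome is a barrel-shaped protease that degrades ubiquitin-tagged proteins, and each of its active sites is carried by a β subunit. IFN‐γ induces an alternative β subunit for every active site. These replace the constitutive subunits in newly built barrels, which are then called immunoproteasomes and cut more peptides of the kind that bind MHC class I molecules. IFN‐γ also induces the PSME1 and PSME2 proteins, which together form the PA28αβ cap that opens the barrel.

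Messenger RNA was sequenced in SNU638 cells, an established line of human gastric cancer, to ask what overexpression of YTHDF1 changes in cells exposed to IFN‐γ. YTHDF1 is a reader protein that binds N6-methyladenosine in mRNA. There were 2 libraries of cells with the control vector and 2 of cells overexpressing YTHDF1, numbered replicate 1 and 2 in each group. The study's methods describe transfection of plasmids, and nothing in the sources used here says how many cells took one up.
All 4 cultures were grown without serum for 24 h and then received IFN‐γ at 10 ng/ml, so no library represents the constitutive state without IFN‐γ. The labels give 8 h of IFN‐γ, whereas the legends of the study give 24 h. The labels call the replicates biological, without saying what the replicate number marks, and p-values measure the spread between these libraries only. In bulk RNA, fewer cells expressing a gene and less RNA per cell cannot be told apart.

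Total counts per library ranged from 57398137 to 60864942. YTHDF1 was at 82.2 and 80.3 CPM (read counts relative to library size, with library sizes scaled by TMM) in control replicates 1 and 2, and at 16494.5 and 2628 CPM in YTHDF1 replicates 1 and 2. The epithelial markers EPCAM, KRT8, KRT18, KRT19 and CDH1 were present in all libraries, with CDH1 the lowest at 34.7 to 52.8 CPM. CLDN4, another epithelial marker, was at 55.0 and 56.6 CPM in the replicate 1 libraries and at 0.93 and 0.99 CPM in the replicate 2 libraries. Between the replicate numbers 4 of the 6 epithelial markers were called, 2 higher and 2 lower in number 2, against 26.2% of all genes (9.96% higher and 16.2% lower), and their part in the members' differences was not tested. Of 10 leukocyte, fibroblast and endothelial markers, COL1A1 reached 10.9 CPM and the other 9 stayed at or below 0.69 CPM. Libraries that shared a replicate number resembled each other (Pearson r of log2 CPM across genes 0.991 for both pairs) more than libraries that shared a vector (0.914 for control and 0.916 for YTHDF1). Each member is therefore given in every library, and differences are given both between the vectors and between the replicate numbers. The fit between the numbers took the control and YTHDF1 libraries of a number as independent replicates. This grouping was chosen with their likeness known, so its p-values and intervals do not cover whatever these libraries share.

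Promoter letters are shown first, for the members whose start region holds the paired GAAA repeat that interferon regulatory factors such as IRF1 recognize. The windows ran from 250 bases before to 50 bases after each RefSeq start site (GRCh38.p14) and were searched on both strands for GAAANNGAAA, which reads TTTCNNTTTC on the opposite strand. This pattern was present in 4.38% of the 27305 genes with a window. It was found at PSMB8, PSMB10, PSME1 and PSME2, and in the TAP1 window between TAP1 and PSMB9, genes that start 487 bases apart on opposite strands. The matches are in capitals. Each line is written 5′ to 3′ on the strand of the named gene: PSMB8 at chr6:32844042-32844076 (minus strand), PSMB10 at chr16:67936851-67936896 (minus strand), PSME1 at chr14:24136174-24136208 (plus strand), PSME2 at chr14:24146611-24146663 (minus strand) and TAP1 at chr6:32853798-32853863 (minus strand).
PSMB8: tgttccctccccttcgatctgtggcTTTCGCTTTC
PSMB10: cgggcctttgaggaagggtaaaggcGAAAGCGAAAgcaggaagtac
PSME1: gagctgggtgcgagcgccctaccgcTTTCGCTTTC
PSME2: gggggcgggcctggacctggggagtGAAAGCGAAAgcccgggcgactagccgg
TAP1: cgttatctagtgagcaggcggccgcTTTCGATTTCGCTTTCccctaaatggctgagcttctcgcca
PSMB8 has 2 listed start sites, and only the window of the inner one held a match, which straddles that start. The same bases are the match in the window of PSMB8-AS1, an antisense gene that overlaps PSMB8, and begin 44 bases before its start. The TAP1 stretch holds 2 overlapping matches. The windows of PSMB9, PSMB5, PSME3 and PSME4 held none of these letters, and the table had no window for PSMB6 or PSMB7. A match describes letters in a window and was not tested as a site of binding.

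Among the inducible catalytic genes, PSMB8 differed most between libraries, and the difference followed the replicate number and not the vector. PSMB8 encodes β5i (LMP7), the inducible subunit with chymotrypsin-like activity, and lies in the MHC region (chr6:32840717-32844679). It was at 95.3 CPM in control replicate 1, 90.3 CPM in YTHDF1 replicate 1, 204 CPM in control replicate 2 and 205 in YTHDF1 replicate 2. Both replicate 2 libraries were thus above both replicate 1 libraries, with means of 204.5 ± 0.62 and 92.8 ± 3.50 CPM (SD, n = 2 each). The log2 fold change of replicate number 2 over number 1 was 1.14 (SE 0.042, 95% interval 1.04 to 1.24), with an adjusted p of 1.1e-07 by edgeR's quasi-likelihood test. It was 1.10 between the control libraries alone and 1.18 between the YTHDF1 libraries alone.
Between the vectors, PSMB8 differed by −0.02 on the log2 scale (SE 0.60, 95% interval −1.74 to 1.70) in the fit without a replicate term. Each vector group holds a low and a high library, so that interval takes in the difference between the numbers. With the replicate number as a block the value was −0.03 (SE 0.046). Within a replicate number the difference between YTHDF1 and control was −0.08 for number 1 and 0.0062 for number 2.

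PSMB9 encodes β1i (LMP2), the inducible subunit at the caspase-like site, and lies near PSMB8 (chr6:32854192-32859851). It was at 116 CPM in control replicate 1, 109.8 CPM in YTHDF1 replicate 1, 134 CPM in control replicate 2 and 132 in YTHDF1 replicate 2. The replicate 2 libraries were again above the replicate 1 libraries, by a log2 fold change of 0.24 (SE 0.043), with an adjusted p of 0.0016 in edgeR's quasi-likelihood test but below the fold minimum of 0.5 on the log2 scale. Between the vectors the log2 fold change was −0.05 (SE 0.15), with −0.08 and −0.03 within numbers 1 and 2. With the replicate number as a block it was −0.05 (SE 0.045).

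PSMB10 encodes β2i (MECL-1), the inducible subunit with trypsin-like activity, and lies outside the MHC region (chr16:67934506-67936850). It was at 104.5 CPM in control replicate 1, 98.3 CPM in YTHDF1 replicate 1, 98.6 CPM in control replicate 2 and 100.2 in YTHDF1 replicate 2. These libraries overlapped both by vector and by replicate number. The log2 fold change was −0.03 between the vectors (SE 0.080) and −0.03 between the replicate numbers (SE 0.045, 95% interval −0.13 to 0.07, edgeR adjusted p = 0.63).

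The constitutive catalytic genes varied little across the 4 libraries. PSMB5 (chr14:23025851-23035220) encodes β5, the counterpart of PSMB8, and was at 127 and 134 CPM in control and YTHDF1 replicate 1 and at 124.0 CPM in both replicate 2 libraries. PSMB6 (chr17:4796164-4798495) encodes β1, the counterpart of PSMB9, and was at 117 and 110.3 CPM in control and YTHDF1 replicate 1 and at 110.7 and 110.9 CPM in control and YTHDF1 replicate 2. PSMB7 (chr9:124353465-124415442) encodes β2, the counterpart of PSMB10, and was at 144 and 134 CPM in control and YTHDF1 replicate 1 and at 149 and 150.3 CPM in control and YTHDF1 replicate 2. The replicate numbers did not overlap for PSMB5, which was lower in number 2, or for PSMB7, which was higher, and they overlapped for PSMB6. None of these 3 genes passed an adjusted p of 0.05 in edgeR's test between the numbers, where PSMB5 had a log2 fold change of −0.07, PSMB6 of −0.04 and PSMB7 of 0.11. Without control replicate 1, however, PSMB5 had −0.11 with an edgeR adjusted p of 0.047 and PSMB7 0.16 with 0.0073, and without YTHDF1 replicate 1 the values were −0.03 and 0.05 with 0.53 and 0.23. Between the vectors the log2 fold changes were 0.04 for PSMB5 (95% interval −0.21 to 0.29), −0.04 for PSMB6 (−0.27 to 0.19) and −0.05 for PSMB7 (−0.33 to 0.24).

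**Figure D1:**
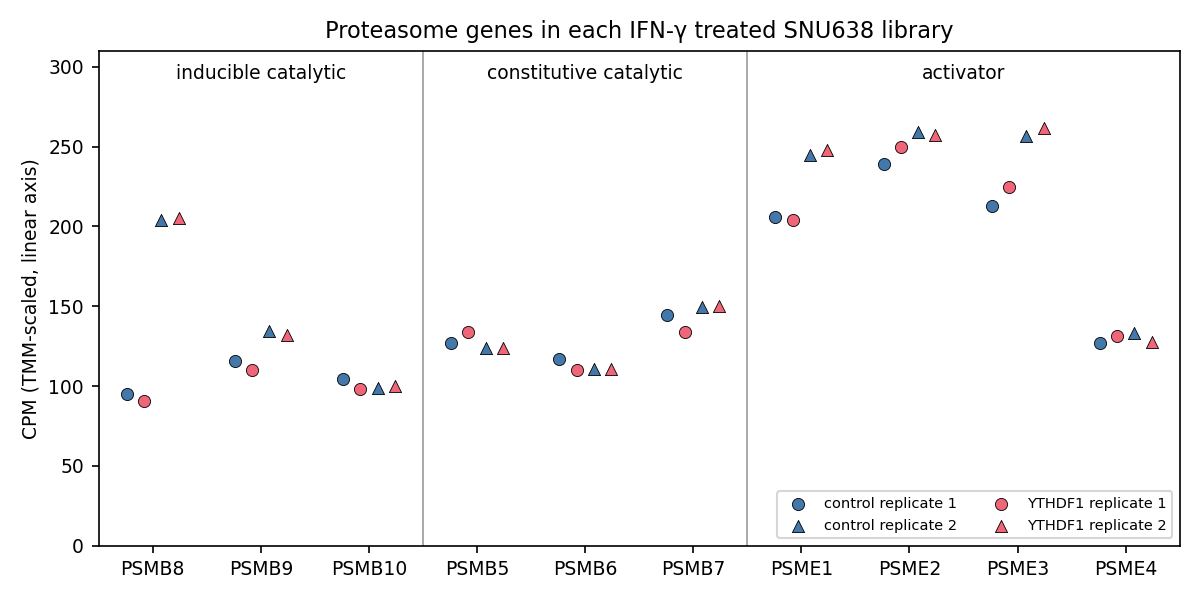
CPM of the 10 genes (linear axis from 0) in each of the 4 libraries, with color for the vector and shape for the replicate number. The replicate 2 libraries of PSMB8 sit at 204 and 205 CPM, well above 95.3 and 90.3 CPM in the replicate 1 libraries, whereas both vectors lie close together for every gene.

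The activator genes were higher in number 2 than in number 1 for PSME1 and PSME3. PSME1 (chr14:24136194-24138962) encodes PA28α and was at 206 and 204 CPM in control and YTHDF1 replicate 1 and at 245 and 248 CPM in control and YTHDF1 replicate 2. Its log2 fold change between the numbers was 0.27 (SE 0.035, edgeR adjusted p = 0.00026). PSME2 (chr14:24143365-24146610), which lies next to PSME1 and encodes PA28β, was at 239 and 249.8 CPM in control and YTHDF1 replicate 1 and at 259 and 257 CPM in control and YTHDF1 replicate 2. The genes of the PA28αβ cap thus both had their higher values in the replicate 2 libraries, although for PSME2 the log2 fold change was 0.08 with an edgeR adjusted p of 0.11 (0.11 with an adjusted p of 0.042 without YTHDF1 replicate 1, and 0.05 with 0.25 without control replicate 1). The PSME2 pseudogene PSME2P1 had 9 to 11 counts per library, and the other PSME2 pseudogenes at most 7.

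PSME3 (chr17:42833397-42843760) encodes PA28γ, the nuclear relative of the IFN‐γ-inducible activator. It was at 213 and 225 CPM in control and YTHDF1 replicate 1 and at 256 and 261 CPM in control and YTHDF1 replicate 2, a log2 fold change of 0.24 between the numbers (SE 0.040, edgeR adjusted p = 0.00094). PSME4 (chr2:53864069-53970993) encodes PA200, a large single-chain activator, and was at 127 and 132 CPM in control and YTHDF1 replicate 1 and at 133 and 127 CPM in control and YTHDF1 replicate 2. PSME4 overlapped by number and by vector, with a log2 fold change between the numbers of 0.01 (95% interval −0.09 to 0.11). Between the vectors the 4 activator genes had log2 fold changes of 0.0033 for PSME1, 0.03 for PSME2, 0.05 for PSME3 and −0.0049 for PSME4.

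Between the vectors, 0 of the 10 members reached a log2 fold change of 0.5 with an unadjusted p under 0.05 in edgeR's quasi-likelihood test, as did 0.101% of the 17781 genes tested. With adjusted p, 0 members and 0% of genes were called, and DESeq2's Wald test called 3 genes. At an unadjusted p under 0.05 and any fold there were 24 genes. The overexpressed gene YTHDF1 was itself not called at adjusted p, with a log2 fold change of 6.88 and an unadjusted p of 0.0061 in edgeR's test. Its adjusted p was 0.0022 in edgeR's test with the replicate number as a block and 5.5e-14 in DESeq2's Wald test. A lack of calls in the unblocked fit therefore does not show that the members were unchanged. Control and YTHDF1 libraries did not overlap for 0 of the 10 members and for 11.5% of all genes. The members' log2 fold changes ran from −0.05 for PSMB9 to 0.05 for PSME3, with a median of −0.01, and the median of all genes was 0.0046. Within the replicate numbers the members' differences between YTHDF1 and control ran from −0.11 for PSMB7 to 0.08 for PSME3 and PSMB5 in number 1, and from −0.06 for PSME4 to 0.03 for PSME3 in number 2.

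Between the replicate numbers, 1 of the 10 members was called at an adjusted p under 0.05 and a log2 fold change of at least 0.5, whereas 26.2% of all genes were called. This was PSMB8, which was higher in number 2, as were 9.96% of all genes, and 0 members were called lower, against 16.2%. At an adjusted p under 0.05 and any fold, 4 of the 10 members differed (PSMB8, PSMB9, PSME1 and PSME3), against 52.6% of all genes. All 4 were higher in number 2, a direction in which 23.6% of all genes differed. The libraries of the numbers did not overlap for 7 of the 10 members, and for 77.1% of all genes. The members' median was 0.09 on the log2 scale and that of all genes −0.01. The change of PSMB8 was larger in size than that of 85.1% of the genes tested, and those of the other 9 members were larger than 2.26% (PSME4) to 44.8% (PSME1).

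**Figure D2:**
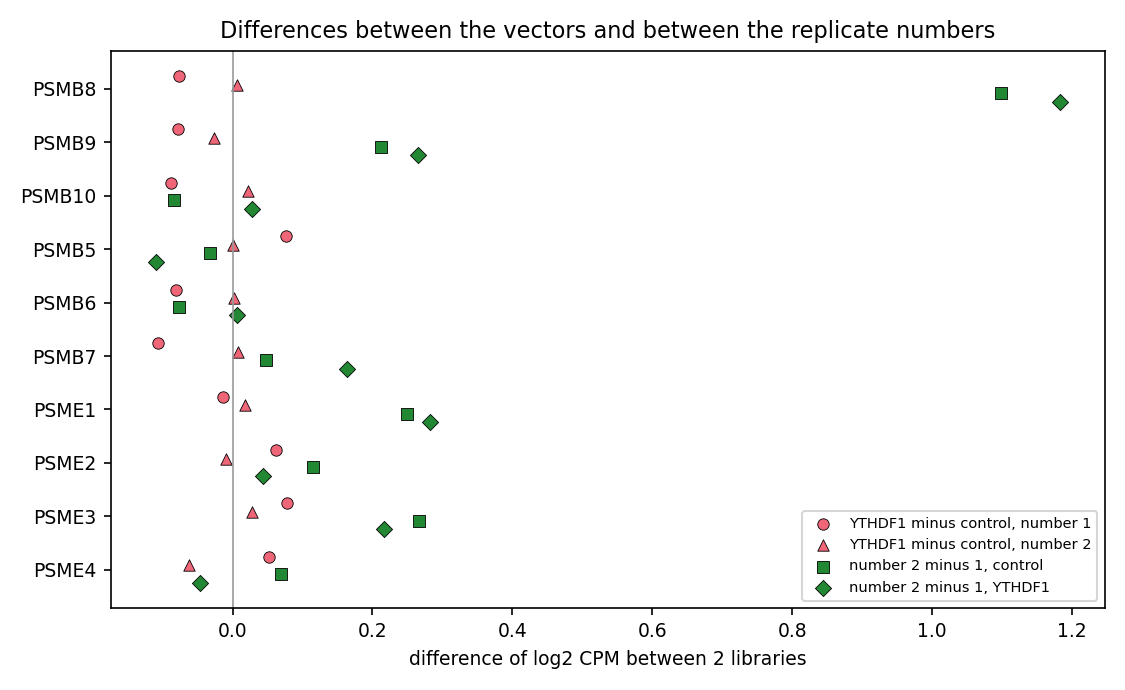
Differences of log2 CPM between pairs of libraries for each gene, with YTHDF1 minus control within a replicate number in red and number 2 minus number 1 within a vector in green. The red points lie between −0.11 and 0.08, and the green points of PSMB8 lie at 1.10 and 1.18.

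The ratio of each inducible gene to the constitutive gene of the same active site does not depend on library size. With counts divided by the median length of the annotated transcripts of each gene, PSMB8/PSMB5 was 0.678 in control replicate 1, 0.61 in YTHDF1 replicate 1, 1.49 in control replicate 2 and 1.49 in YTHDF1 replicate 2. The inducible transcript was therefore below its counterpart in both number 1 libraries and above it in both number 2 libraries. The log2 ratio was higher by 1.21 in number 2, with 1.13 between the control libraries and 1.29 between the YTHDF1 libraries.
PSMB9/PSMB6 per length was 1.09, 1.10, 1.34 and 1.31 in control replicate 1, YTHDF1 replicate 1, control replicate 2 and YTHDF1 replicate 2. Per length this ratio was above 1 in every library and higher in number 2 by 0.27 on the log2 scale. As a read count ratio it was 0.993 and 0.995 in the number 1 libraries. PSMB10/PSMB7 per length was 0.582, 0.590, 0.531 and 0.537 in the same order. It was below 1 in every library and lower in number 2 by 0.13 on the log2 scale (a log2 difference of −0.13), so the ratios of the 3 active sites did not all move the same way between the numbers.

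Within number 1 the read count ratio PSMB8/PSMB5 was 0.751 in control and 0.676 in YTHDF1, and within number 2 it was 1.65 in both, with 1 library on each side and so no test. The vectors overlapped in all 3 ratios. The log2 ratio of YTHDF1 minus control was −0.07 for PSMB8/PSMB5, −0.01 for PSMB9/PSMB6 and 0.02 for PSMB10/PSMB7, and the numbers did not overlap in any of them. The exact two-sided permutation test over the 4 libraries gave p = 0.333 for each ratio between the numbers, which is the smallest value that 2 libraries against 2 allow, and p = 1, 1 and 0.667 between the vectors. Over these 6 comparisons the Benjamini-Hochberg adjusted values of the exact test were 0.666 between the numbers and 1 between the vectors. This exact test could therefore not reach 0.05 for a ratio.

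**Figure D3:**
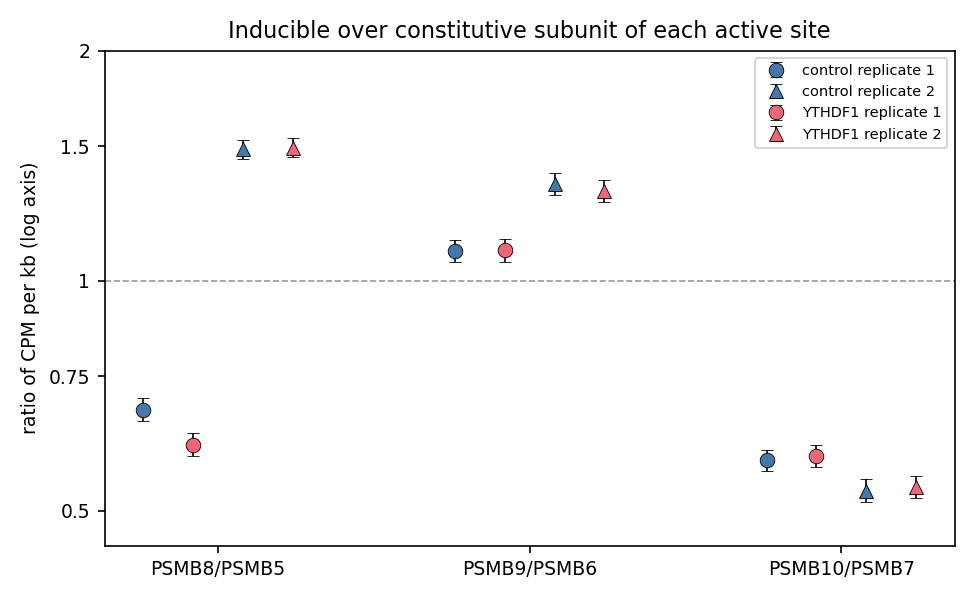
Ratio of inducible to constitutive gene in CPM per kb of transcript (log axis) for the 3 active sites, 1 point per library, with 95% intervals that cover counting error only. PSMB8/PSMB5 is at 0.678 and 0.61 in the replicate 1 libraries and at 1.49 in both replicate 2 libraries, and the other ratios lie much closer together.

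Summed over the 3 active sites, the inducible genes were at 311 CPM per kb in control replicate 1, 294 in YTHDF1 replicate 1, 418 in control replicate 2 and 417 in YTHDF1 replicate 2. The constitutive genes summed to 396, 385, 392 and 393 CPM per kb in the same order. The inducible share of both sums was thus 44.0% and 43.3% in the number 1 libraries and 51.6% and 51.5% in the number 2 libraries. Without PSMB8 and PSMB5 it was 45.3% and 45.5% in number 1 and 47.4% and 47.1% in number 2. PSMB8 made up 24.8% of the inducible sum in both number 1 libraries and 39.5% and 39.8% in control and YTHDF1 replicate 2.

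Per kb of transcript and averaged over the 4 libraries, the order of levels was PSME1 at 224 ± 23.8, PSME2 at 179 ± 6.45, PSMB9 at 157 ± 15.3, PSMB7 at 148 ± 7.56 and PSMB6 at 130.2 ± 3.52 CPM per kb (SD, n = 4). PSMB8 followed at 120.1 ± 52.2, PSMB5 at 114 ± 4.11, PSMB10 at 82.4 ± 2.33, PSME3 at 81.1 ± 8.03 and PSME4 at 18.3 ± 0.43 CPM per kb (SD, n = 4). In this order PSME1 stood above PSME2, PSMB7 above PSMB6, PSMB5 above PSMB10 and PSME3 above PSME4 without overlap of their libraries, and the other neighbors overlapped. PSMB8 was at 77.0 and 73.0 CPM per kb in the number 1 libraries, below the other 2 inducible genes, and at 165 and 166 CPM per kb in the number 2 libraries, beside 172 and 169 CPM per kb for PSMB9. The median of the 11 other core subunit genes detected was 182, 181, 176 and 178 CPM per kb in control replicate 1, YTHDF1 replicate 1, control replicate 2 and YTHDF1 replicate 2. PSMB5, PSMB6, PSMB7, PSMB8, PSMB9 and PSMB10 were each below this median in every library, but within the range of those 11 genes. That range was 52.2 to 250 CPM per kb in control replicate 1 and 47.9 to 263 CPM per kb in YTHDF1 replicate 2. Lengths are medians over annotated transcripts, and which isoforms the cells used was not measured. For PSME3 the annotated transcripts ran from 998 to 3144 bases, with 2944 used, so its place in the order depends on the length taken. The SDs do not cover this.

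Genes of the rest of the proteasome were compared next, as 40 tested genes. They were those of the α ring, the non-catalytic β subunits, and the ATPases and non-ATPases listed with the 19S regulatory particle that recognizes ubiquitin. The last list held assembly factors and the inhibitor PSMF1. The non-ATPase list went largely by gene name and is not confined to subunits of the finished particle. Between the vectors 0 of the 40 were called, and their log2 fold changes ran from −0.09 to 0.06. Between the numbers 1 of the 40 was called, against 26.2% of all genes, and 23 had an adjusted p under 0.05 at any fold in edgeR's test, as did 52.6% of all genes. The called gene was PSMD6, a non-ATPase subunit of the regulatory particle. It was at 416 and 425 CPM in control and YTHDF1 replicate 1 and at 953 and 944 CPM in control and YTHDF1 replicate 2, a log2 fold change of 1.17 (SE 0.043, adjusted p = 1.0e-07). The lists' medians between the numbers were 0.05 for the α ring, −0.09 for the non-catalytic β subunits and 0.05 for the ATPases. They were 0.08 for the non-ATPases and 0.03 for the assembly factors with PSMF1.
PSMB8 and PSMD6 thus differed by similar amounts. The other members and tested proteasome genes lay between −0.34 (PSMD10) and 0.46 (PAAF1). The deubiquitinases of the regulatory particle, USP14 and UCHL5, were not called in either comparison. PSMA8, an α subunit of the testis, had 0 counts in all 4 libraries, and PSMB11, the catalytic subunit of the thymus, had 4 counts in YTHDF1 replicate 1 only, so neither was tested.

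**Figure D4:**
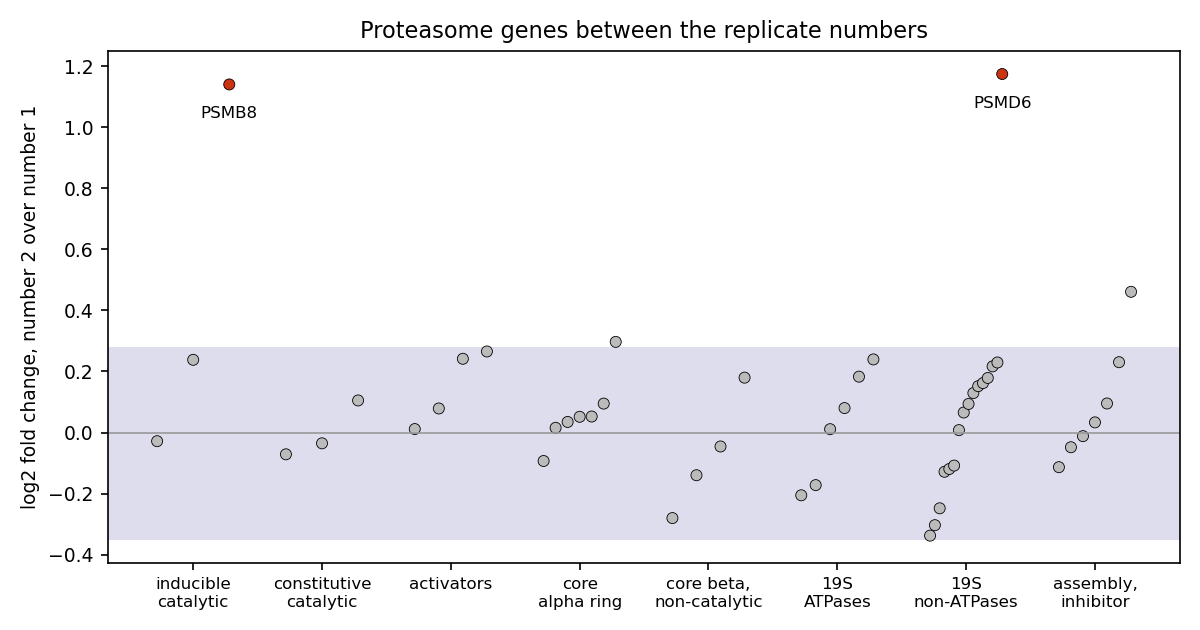
Log2 fold change of number 2 over number 1 for each tested proteasome gene, by list, with called genes in red and the shaded band holding the middle 50% of all 17781 genes. PSMB8 at 1.14 and PSMD6 at 1.17 stand above all other proteasome genes plotted, which lie at or below 0.46.

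In the MHC region, PSMB8, its antisense gene PSMB8-AS1, TAP1 and PSMB9 lie within 19135 bases. PSMB8-AS1 overlaps the start of PSMB8 on the opposite strand and shares 425 exonic bases with it. It was at 9.55 and 9.60 CPM in control and YTHDF1 replicate 1 and at 17.5 and 18.2 CPM in control and YTHDF1 replicate 2, a log2 fold change between the numbers of 0.90 (SE 0.079, edgeR adjusted p = 2.3e-05). Whether the counting used the strand is not given in the sources used here, and without strand the reads of PSMB8 and PSMB8-AS1 cannot be told apart in the shared bases. The same holds for the 456 exonic bases that PSMB8-AS1 shares with TAP1, a gene with much higher CPM. From number 1 to number 2 the count of PSMB8 rose by 5911 reads in control and 7057 in YTHDF1, and that of PSMB8-AS1 by 422 and 533.
TAP1 encodes a subunit of the transporter that carries proteasome products into the endoplasmic reticulum, and it shares its start region with PSMB9. It was at 783 and 773 CPM in control and YTHDF1 replicate 1 and at 865 and 886 CPM in control and YTHDF1 replicate 2, a log2 fold change between the numbers of 0.17 (SE 0.044, edgeR adjusted p = 0.011). TAP2, the partner subunit, had a log2 fold change of 0.26 (SE 0.032, adjusted p = 0.0002). TAP1, TAP2 and PSMB9 were therefore all higher in number 2, with log2 fold changes of 0.17, 0.26 and 0.24, and the 95% intervals of PSMB8 and PSMB8-AS1 began at 1.04 and 0.72.

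**Figure D5:**
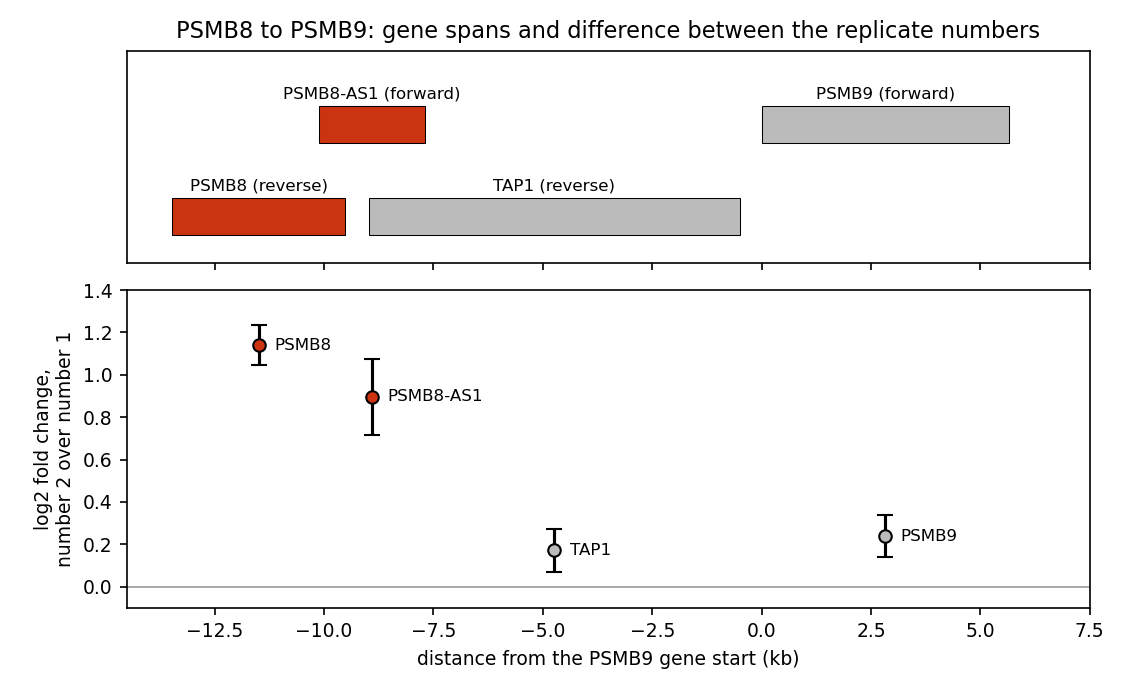
Gene spans from PSMB8 to PSMB9 by distance from the PSMB9 gene start (kb), and below them the log2 fold change of number 2 over number 1 with its 95% interval, drawn at the middle of each gene. PSMB8 at 1.14 and PSMB8-AS1 at 0.90 stand above TAP1 at 0.17 and PSMB9 at 0.24.

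Transcription factors known to act on these genes were read in the same fits. IRF1, which IFN‐γ induces, was at 813 and 832 CPM in control and YTHDF1 replicate 1 and at 1044 and 1078 CPM in control and YTHDF1 replicate 2, a log2 fold change of 0.37 (SE 0.047, edgeR adjusted p = 0.00022).
NLRC5, the transactivator of MHC class I genes and their partners, had a log2 fold change between the numbers of 0.12 (SE 0.037, edgeR adjusted p = 0.025). NFE2L1 and NFE2L2, which drive constitutive proteasome genes, had log2 fold changes of 0.20 and −0.38, with adjusted p of 0.00091 and 7.9e-05. None of these 4 was called between the vectors, where their log2 fold changes ran from −0.00036 for NFE2L1 to 0.05 for NFE2L2. The part of any of them in the level of PSMB8 was not tested.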

How the data were processed

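Messenger RNA of 4 SNU638 libraries (2 control, 2 YTHDF1, all with IFN‐γ) was sequenced from stranded poly(A) libraries. The authors deposited raw counts per gene for 46427 genes, of which 20072 were at 0 in all libraries. The submitters' processing notes name Trimmomatic, HISAT2 and GRCh38, and the counting tool, its strand setting and the annotation are not given in the sources used here.

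Counts were fitted over the whole table in R 4.3.3 with edgeR 4.0.16 (filterByExpr, TMM, quasi-likelihood test, Benjamini-Hochberg adjustment over 17781 genes), once between the vectors and once between the replicate numbers. Called means a log2 fold change of at least 0.5 and p under 0.05. Standard errors were derived from each fold change and its F statistic. Within-number differences used a prior count of 0.5. Ratios were tested by exact permutation (scipy 1.17.1). Transcript lengths and exons came from GENCODE and gene spans, identifiers and promoters from RefSeq GRCh38.p14. All 10 members, the neighboring genes and the regulators were named whatever their values, and of the other proteasome lists up to 3 called genes in each direction. One listed regulator is not reported here. The members and lists were chosen with earlier results of these data known.

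At 57398137 to 60864942 counts per library counting error was given for ratios. Intervals cover counting error only where so stated, since PCR copies of a molecule were not marked. Alternatives were DESeq2 1.42.0 size factors and Wald test, no filter, at least 10 counts in every library, library sizes computed without YTHDF1, the other factor as a model term, and each library left out. The fits were also run on simulated data, and the outcome is not given here and not used as support.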

Additional observations from a re-analysis of the deposited data

How the results depend on the processing

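PSMB8 was the called member between the replicate numbers, and no member was called between the vectors, under every alternative run. All member directions between the numbers were kept in the 60 values that did not leave out a library, and those between the vectors in 59 of 60, the exception being PSME1 at −1.25e-05 when library sizes were computed without YTHDF1. The number of all genes called between the vectors was 18, and it was 82 without a filter on low counts, 14 with DESeq2's Wald test, 192 with the replicate number as a block and 47 (without YTHDF1 replicate 2) to 60 (without control replicate 1) with 1 library left out. At adjusted p it was 0, and 3 with DESeq2's Wald test and 8 with the replicate block. The cause was not tested. The deviations of same-numbered libraries from their group means correlated at 0.902, but the number has no stated meaning and there are only 2 pairs. No block term was fitted for the ratios, and the vectors were compared within each replicate number, with 1 library on each side. The log2 ratio of YTHDF1 minus control was then 0.0062 for PSMB8/PSMB5 in number 2 and 0.0027 for PSMB9/PSMB6 in number 1. Over all 4 libraries these were −0.07 and −0.01.

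Leaving out 1 library leaves a lone library in 1 group, assumed to vary like the others, and unbalances the replicate numbers. Between the vectors the log2 values then ran from −0.74 to 0.63 for PSMB8, −0.195 to 0.0776 for PSMB9, −0.075 to 0.0092 for PSMB10, −0.0149 to 0.0856 for PSMB5, −0.139 to 0.0335 for PSMB7, −0.15 to 0.14 for PSME1, −0.0301 to 0.0836 for PSME2, −0.0761 to 0.19 for PSME3 and −0.0387 to 0.0287 for PSME4. The log2 ratios ran from −0.72 to 0.57 for PSMB8/PSMB5, −0.16 to 0.13 for PSMB9/PSMB6 and −0.0509 to 0.0852 for PSMB10/PSMB7. Between the numbers PSMB10 ran from −0.0694 to 0.0169, PSMB6 from −0.0729 to 0.0062 and PSME4 from −0.0142 to 0.0462, and no other member changed direction. At an adjusted p under 0.05 and any fold, PSMB5 and PSMB7 passed without control replicate 1 and PSME2 without YTHDF1 replicate 1. Between the vectors, the members' standard errors ran from 0.079 (PSMB6) to 0.60 (PSMB8) without a block. With the replicate block they ran from 0.043 (PSME1) to 0.049 (PSMB10). There are 2 libraries per group, and without a block the difference between the replicate numbers counts as spread within a vector.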
